A study of Mus musculus with 6 samples.

Results

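The immunoglobulin κ light chain was read by 14 of the 45101 probe sets on the arrays. They are the probe sets to which the platform annotation gives a single gene symbol out of a list of 10 κ locus symbols, among 18194 symbols in all. Of these, 4 carry the symbol of the whole locus, Igk, and 10 carry 1 of 9 V segment symbols, Igkv14-111, Igkv15-103, Igkv19-93, Igkv4-68, Igkv4-72, Igkv6-14, Igkv6-15, Igkv8-30 and the older symbol Igk-V21. The samples were bone marrow B cells of C57BL/6 mice of both sexes, aged 8 to 12 weeks and untreated, left after removal of cells bearing Gr1, DX5, CD11b, Ter119 or CD3 and then sorted on surface light chain. Cells of 3 kinds were hybridised, on 2 arrays each. TAK1-deficient Igκ+ cells carry the genotype mb-1/TAK1f/f, while wild-type Igλ+ and wild-type Igκ+ cells carry mb-1/TAK1+/+, so mb-1 stands in the genotype of every sample. The labels give neither the meaning of mb-1, which is an older name of the B cell gene Cd79a, nor the extent of TAK1 loss, and they do not say whether the 2 arrays of a group came from separate animals, so every spread and p-value below may be technical.

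In a developing B cell, 1 of the many V segments of the κ locus is joined to a J segment, and the transcript is spliced to the single constant region gene, Igkc. In the mouse this usually happens before the λ locus is recombined, and a mature B cell as a rule shows only 1 kind of light chain on its surface. A probe set for a V segment therefore reads how much of the pooled RNA comes from clones that use that segment or a close relative, whereas a probe set that reaches into the constant region reads κ RNA of any clone. V segments of a family are near-identical, so a signal named for one of them may include others. Probe sets ending in _x_at or _a_at may bind more than 1 transcript. NF-κB, which acts downstream of the kinase TAK1, owes its name to its binding site in a κ enhancer.

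Values are MAS5 signals, a linear array intensity, and a percentage is the signal as a percent of the mean of the 2 wild-type Igκ+ arrays at the same probe set. The TAK1-deficient arrays stood apart. Their log2 signals had a Pearson's r of 0.432 to 0.51 with those of wild-type arrays, which had 0.962 to 0.984 with each other. The geometric mean of the spiked hybridization controls was 47043 and 41197 there, against 3985 to 4608 for wild type, and Actb gave a 3′ signal 6.28 and 4.18 times its 5′ signal against 1.25 to 1.58 times. The 95th percentile of the unspiked controls, taken below as the level of no signal, was 77.8 and 75.7 on the TAK1-deficient, 13.1 and 17.4 on the wild-type Igλ+ and 13.4 and 10.3 on the wild-type Igκ+ arrays. All 9 listed B cell markers on the array were above that level on every array. Map3k7, which encodes TAK1, had signals of 346 and 599 in TAK1-deficient Igκ+, 2149 and 1957 in wild-type Igλ+, and 2196 and 1805 in wild-type Igκ+ cells. Where its probes lie relative to the deleted part is not known, so they check nothing.

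κ signals were lower than in wild-type Igκ+ cells in both other groups at most probe sets, but the 2 wild-type Igλ+ arrays differed greatly from each other. Over the 14 probe sets the median was 16.2% and 22.0% on TAK1-deficient replicates 1 and 2, 0.405% and 30.1% on Igλ+ replicates 1 and 2, and 105% and 94.9% on the wild-type Igκ+ replicates. Igλ+ replicate 1 was lowest at every one of the 14. The labels do not say how much κ RNA Igλ+ cells hold, and which Igλ+ replicate is typical was not tested. The tests of κ probe sets in Igλ+ cells are given with both replicates and without each. In the order of these medians, wild-type Igκ+ cells come first, and TAK1-deficient Igκ+ and Igλ+ cells cannot be ranked, since the TAK1-deficient medians lie between those of the Igλ+ replicates. Where signals were lower, fewer κ-expressing cells, less κ RNA per cell and other use of V segments cannot be told apart in such bulk samples. On the TAK1-deficient arrays, the array differences given above cannot be separated from these either.

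**Figure D1:**
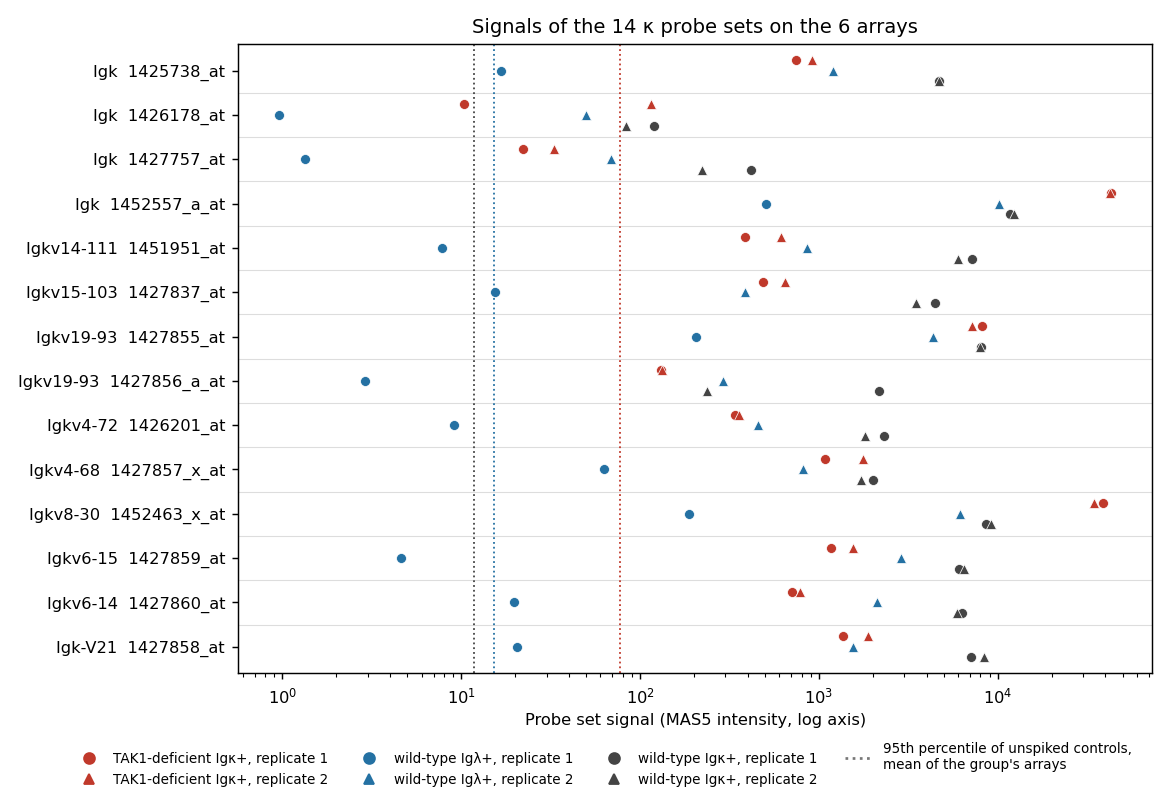
Signal of each of the 14 κ probe sets (rows) on the 6 arrays (log axis), with circles for replicate 1, triangles for replicate 2 and a colour for each group. Dotted lines give the 95th percentile of the unspiked controls, averaged over the arrays of a group. Igλ+ replicate 1 is the leftmost point in every row, and on it 6 probe sets lie at or below its own control level of 13.1.

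The brightest κ probe set, Igk 1452557_a_at, had signals of 42955 and 42292 in TAK1-deficient Igκ+, 503 and 10128 in wild-type Igλ+, and 11754 and 12400 in wild-type Igκ+ cells. On Igλ+ replicate 2 it kept 83.9% of the wild-type Igκ+ mean, and on replicate 1 it kept 4.16%. Igkv8-30, at its _x_at probe set, went the same way with 39009 and 34747 in TAK1-deficient Igκ+, 188 and 6132 in Igλ+, and 8564 and 9218 in wild-type Igκ+ cells. Both had TAK1-deficient values above and Igλ+ values below the wild-type Igκ+ range. On the wild-type arrays these signals approached the top of the measured range, since the brightest spiked control read 15310 to 16295 there. It read 177337 and 167881 on the TAK1-deficient arrays, and how this bears on signals as bright as these was not tested.

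Most V segment probe sets had lower signals on the TAK1-deficient than on the wild-type Igκ+ arrays. Igkv14-111, the V gene farthest from the J segments among those listed, had 384 and 614 in TAK1-deficient Igκ+, 7.81 and 858 in Igλ+, and 7223 and 5985 in wild-type Igκ+ cells. Its neighbour on this list along the locus, Igkv15-103, had 485 and 650, 15.4 and 386, and 4450 and 3477 in the same groups. In both genes the 4 arrays of the other groups lay below both wild-type Igκ+ arrays, with no overlap. The same held for Igk 1425738_at, Igk 1427757_at, Igkv4-72, Igkv6-15, Igkv6-14 and Igk-V21. How many of all probe sets show no overlap was not counted. Of the 16116 probe sets whose wild-type Igκ+ mean reached 200, 51.97% and 50.05% lay below 50% of it on TAK1-deficient replicates 1 and 2. On Igλ+ replicates 1 and 2, 4.517% and 1.222% did. Igkv15-103 was also the probe set with the lowest share on Igλ+ replicate 2, 9.74%.

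Igkv6-15 and Igkv6-14 are adjacent members of a V family near the J end of the list, and their probe sets were designed from the same source sequence. Igkv6-15 had 1168 and 1543 in TAK1-deficient Igκ+, 4.61 and 2880 in Igλ+, and 6065 and 6489 in wild-type Igκ+ cells. For Igkv6-14 the signals were 703 and 780, 19.7 and 2118, and 6303 and 5932. Here Igλ+ replicate 2 stood above both TAK1-deficient arrays, whereas at Igkv14-111 it was above them by less and at Igkv15-103 it was below them. Igkv6-15 also showed the widest gap between the Igλ+ replicates, with replicate 2 at 624 times replicate 1, although replicate 1 was there at the level of unspiked controls, so the size of that ratio depends on the background.

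Igk-V21 had 1372 and 1888 in TAK1-deficient Igκ+, 20.4 and 1552 in Igλ+, and 7087 and 8352 in wild-type Igκ+ cells. A further Igk probe set, 1425738_at, had 742 and 911, 16.6 and 1194, and 4677 and 4674. At Igkv4-72 the values were 341 and 356, 9.08 and 459, and 2323 and 1800. All 3 had the same arrangement, with Igλ+ replicate 1 near the unspiked controls, the TAK1-deficient arrays and Igλ+ replicate 2 within a few fold of each other, and wild-type Igκ+ above them.

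A trio of probe sets, 2 named Igkv19-93 and 1 named Igkv4-68, shares a single source sequence and disagreed. Igkv19-93 1427855_at had 8186 and 7189 in TAK1-deficient Igκ+, 206 and 4336 in Igλ+, and 8111 and 7950 in wild-type Igκ+ cells, so the TAK1-deficient arrays lay on both sides of the wild-type Igκ+ pair. Igkv4-68, at an _x_at probe set, had 1087 and 1768, 62.7 and 819, and 1996 and 1730, and its TAK1-deficient range touched that of wild-type Igκ+ cells. The other probe set of Igkv19-93, 1427856_a_at, had 131 and 132, 2.90 and 292, and 2177 and 238. It differed 9.13-fold between the wild-type Igκ+ replicates, while the remaining 13 probe sets lay between 69.3% and 131% of their mean there.

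The last 2 members, both named Igk, were dim and fell short of the filter on the mean signal over all arrays. Igk 1427757_at had 22.2 and 33.0 in TAK1-deficient Igκ+, 1.34 and 68.4 in Igλ+, and 418 and 222 in wild-type Igκ+ cells. Igk 1426178_at had 10.3 and 115, 0.96 and 50.1, and 119 and 83.1. The first was at the unspiked level on both TAK1-deficient arrays, the second on replicate 1 only, and both on Igλ+ replicate 1. The other 12 passed the filter and entered the tests.

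The comparison of TAK1-deficient with wild-type Igκ+ cells asked how loss of the kinase changes κ transcripts in cells that carry κ on the surface. In limma's fit over all 6 arrays, 2 of the 12 tested κ probe sets fell (Benjamini-Hochberg adjusted p under 0.05), against 35.2% of all 27022 probe sets tested, and 0 rose, against 42.3%. The share of κ probe sets called is therefore not above the background of this comparison. Igkv15-103 fell by 2.77 ± 0.94 (SE) on the log2 scale (adjusted p = 0.0230) and Igkv14-111 by 3.71 ± 1.29 (adjusted p = 0.0263). The median log2 difference was -2.29 over the 12 κ probe sets and 0.23 over all tested. Of the 10 that did not pass, 8 had negative and 2 positive differences, and Igkv8-30 was at 2.05 ± 1.20 (adjusted p = 0.145) and Igk 1452557_a_at at 1.82 ± 1.04 (adjusted p = 0.140).

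The spread in that fit is shared with the Igλ+ arrays, which differ so widely at κ probe sets. Fitted on the 4 Igκ+ arrays alone, 8 of the 12 fell, against 37% of all, and 2 rose, against 44.7% (limma, Benjamini-Hochberg). The called decreases there ran from -2.21 ± 0.19 (SE) at Igkv6-15 to -3.71 ± 0.25 at Igkv14-111, and the increases were 1.82 ± 0.13 at Igk 1452557_a_at and 2.05 ± 0.14 at Igkv8-30. Igkv19-93 1427855_at (-0.07 ± 0.14) and Igkv4-68 (-0.42 ± 0.25) did not pass. Leaving out Igλ+ replicate 1 or Igλ+ replicate 2 also gave 8 that fell and 2 that rose, whereas leaving out TAK1-deficient replicate 1, TAK1-deficient replicate 2 or wild-type Igκ+ replicate 1 gave 0 of either, and leaving out wild-type Igκ+ replicate 2 gave 1 that fell, Igkv19-93 1427856_a_at (-3.89, adjusted p = 0.0488). Without the filter the fit over all 6 arrays gave the dim Igk 1427757_at a log2 difference of -2.89 (limma, Benjamini-Hochberg adjusted p = 0.00699) and Igk 1426178_at one of -0.98 (adjusted p = 0.318).

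**Figure D2:**
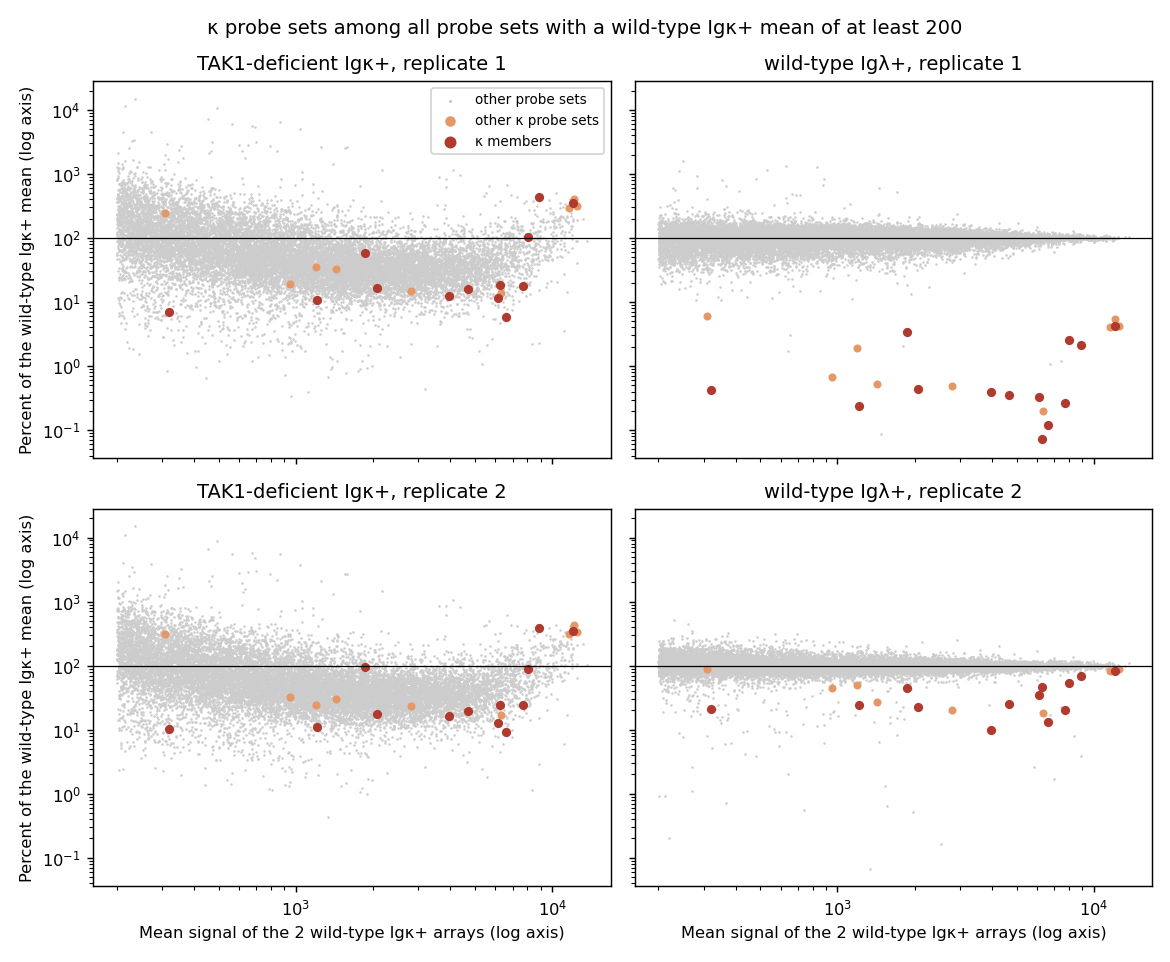
Percent of the wild-type Igκ+ mean (vertical log axis) against that mean (horizontal log axis) for the 16116 probe sets where that mean reaches 200, with 1 panel for each TAK1-deficient and Igλ+ array, κ members in dark red and other κ probe sets in orange. On Igλ+ replicate 1 the κ probe sets lie far below the cloud, with the members at 0.0735 to 4.16%, while on the TAK1-deficient arrays most lie in its lower part and the brightest at its upper edge.

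The percentages on the TAK1-deficient arrays differed between bright and dim κ probe sets, with overlap. The 3 members whose mean in wild-type Igκ+ cells reached 8000, a limit chosen with the values in view, had a median of 356% and 350% on TAK1-deficient replicates 1 and 2 (102 to 439% and 89.5 to 391%), and the other 11 had medians of 12.2% and 17.3% (5.82 to 58.4% and 9.30 to 114%). On replicate 2 the bright Igkv19-93 1427855_at (89.5%) lay below the dimmer Igkv4-68 (94.9%) and Igk 1426178_at (114%). Among all 234 probe sets that bright the medians were 94.1% and 100%, with highest values of 497% and 429%, and among the 16116 whose mean reached 200 they were 47.8% and 49.9%. The rank correlation of brightness with percentage over the 14 members was 0.65 and 0.38, as a description of probe sets that share arrays and in part sequence; over the 16116 it was -0.43 and -0.41. The 3 probe sets that the annotation ties to Igkc together with several V and J genes, which are not members, had 296 to 403% on replicate 1 and 312 to 427% on replicate 2, in the range of the bright members.

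**Figure D3:**
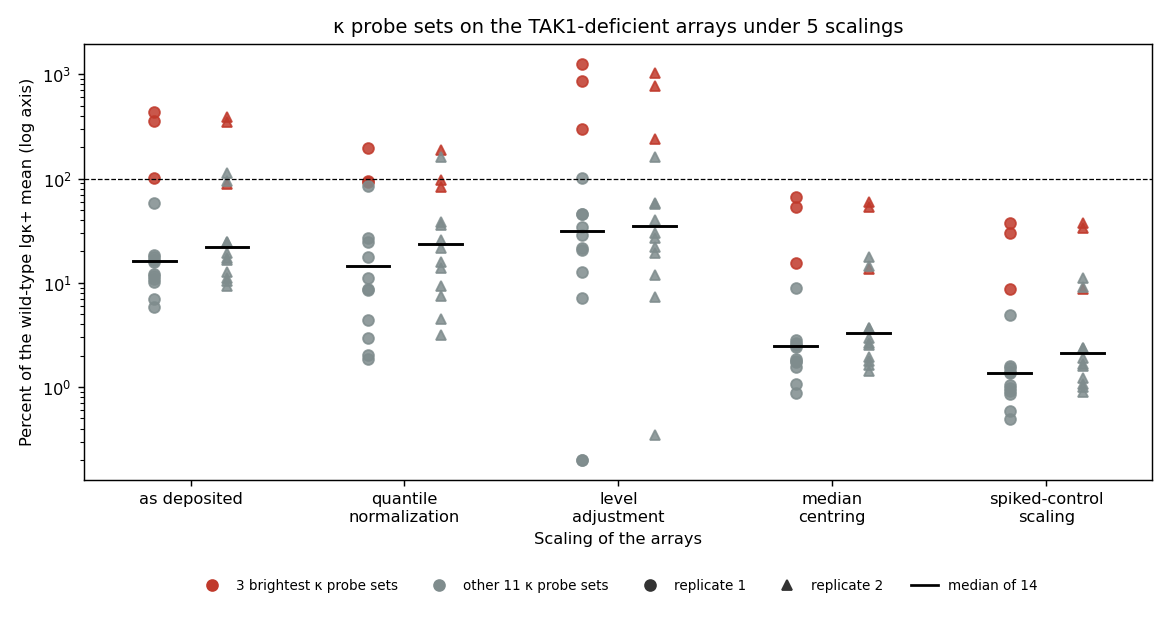
Each of the 14 κ probe sets on the 2 TAK1-deficient arrays as percent of the wild-type Igκ+ mean (log axis) under 5 scalings, with the 3 brightest in red, circles for replicate 1, triangles for replicate 2 and bars for the median of the 14. A value below 0.2 is drawn at 0.2. The medians stay under 100% in all 5. Of the brightest, Igk 1452557_a_at and Igkv8-30 lie above 100% as deposited and below it with median centring and with scaling on the spiked controls.

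Scaling decided the direction of the bright probe sets. As deposited, 3 of the 14 exceeded 100% on each TAK1-deficient array, namely Igk 1452557_a_at and Igkv8-30 on both, with Igkv19-93 1427855_at on replicate 1 and the dim Igk 1426178_at on replicate 2. With each array centred on its median, or scaled on the spiked controls, 0 of the 14 did, the medians were 2.46% and 3.32% or 1.38% and 2.13%, and 10 of the 12 tested probe sets were called lower in either scaling and 0 higher. Over all probe sets 62.9% were called lower and 24.1% higher with median centring, and 67.1% and 20.1% with spiked-control scaling. The log2 difference of Igk 1452557_a_at became -0.90 with median centring and -1.64 with spiked-control scaling, and that of Igkv8-30 became -0.67 and -1.41. A lowess adjustment of the TAK1-deficient arrays for their trend against the wild-type level gave medians of 31.6% and 35.3%, and 2 of the 12 probe sets rose, against 38.3% of all, while 0 fell, against 13.2% of all.

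Genes that act on the κ locus were measured on the same arrays. Of 20 factors known to bind κ enhancers or promoters or to act in κ rearrangement, 15 fell and 1 rose in TAK1-deficient Igκ+ cells. Over all probe sets 35.2% fell and 42.3% rose. The median log2 difference was -1.27 for the factors and 0.23 over all. Each factor stood by its brightest probe set, which makes the background with 1 probe set per gene the closer one. There 48.7% of 11882 fell and 31.4% rose, with a median of -0.63. The NF-κB subunit gene Rela had 247 and 138 in TAK1-deficient against 1669 and 1626 in wild-type Igκ+ cells, and it fell by 3.05 ± 0.33 (SE; limma, Benjamini-Hochberg adjusted p = 3.08e-05). Tcf3, which encodes the E2A proteins that bind κ enhancers, had 259 and 169 against 1627 and 1831 and fell by 2.95 ± 0.27 (adjusted p = 1.23e-05). Pou2f2, whose product OCT2 binds the octamer of V promoters, had 562 and 785 against 2994 and 2892. Its coactivator gene Pou2af1 did not pass, with 6804 and 8065 against 6864 and 6707. Irf4, which acts with PU.1 at the 3′ κ enhancer, had 2358 and 3279 against 5358 and 6866 and passed as lower, but it was at 0.04 under the lowess adjustment (limma, Benjamini-Hochberg adjusted p = 0.871). The factor that rose was Ebf1, an early B lineage factor, with 9309 and 9899 against 5983 and 6172. Rela and Tcf3 were called lower in each of the 5 scalings (limma, Benjamini-Hochberg), with log2 differences of -1.65 and -1.59 under the lowess adjustment, where 5 of the 20 fell and 3 rose, against 13.2% and 38.3% of all probe sets. Ebf1 turned to -2.05 with median centring and -2.79 with spiked-control scaling, in both of which all 20 factors were called lower, as the median over all probe sets also moved to -2.33 and -3.00.

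Of 11 genes of the recombination machinery, 5 fell and 3 rose, near the shares with 1 probe set per gene (48.7% and 31.4%). Over all probe sets the shares were 35.2% and 42.3%. The counts moved with the scaling. Under the lowess adjustment 0 were lower and 2 higher, against 13.2% and 38.3% of all probe sets. With spiked-control scaling 9 were lower and 1 higher, against 67.1% and 20.1% of all. Rag1 and Rag2, which encode the recombinase that cuts at V and J segments, were 2 of those that rose. Rag1 had 365 and 340 in TAK1-deficient against 178 and 69.4 in wild-type Igκ+ cells, a log2 difference of 1.52 ± 0.46 (SE; limma, Benjamini-Hochberg adjusted p = 0.0148). Rag2 had 400 and 428 against 23.8 and 6.56. The last of these, on wild-type Igκ+ replicate 2, was at the unspiked level, and Rag2 passed the filter through the TAK1-deficient arrays. Since Rag2 entered the tests through the group where it was high, its calls are description only. They were higher in each of the 5 scalings, with a lowest log2 difference of 1.13. Rag1 turned to -1.62 with spiked-control scaling, -0.96 with median centring and -0.36 with quantile normalization. Xrcc5, which encodes a Ku subunit of the end-joining complex, fell, with 367 and 210 against 1014 and 984, but did not pass under the lowess adjustment (-0.70, adjusted p = 0.158 in limma, Benjamini-Hochberg).

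Igλ+ cells were set against Igκ+ cells of the same genotype to see what κ RNA remains in cells sorted for λ. The Igλ+ mean was the lower at all 12 tested κ probe sets. Their log2 differences had a median of -4.36, against 0.03 over all tested. In limma's fit over all 6 arrays 0 of the 12 passed as lower, against 0% of all 27022 probe sets, and 0 passed as higher, against 0% of all (Benjamini-Hochberg; adjusted p = 1 for each κ probe set). At an unadjusted p under 0.05, all 12 were lower, against 157 or 0.581% of all probe sets tested. The differences ran from -2.40 at Igk 1452557_a_at to -5.51 at Igkv14-111.

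Taken singly the 2 Igλ+ arrays gave different accounts of the same genes. Without Igλ+ replicate 2, 11 of the 12 fell (limma, Benjamini-Hochberg), against 0.167% of all probe sets, and 0 rose, against 0.348%. The log2 difference was then -8.25 ± 0.27 (SE) for Igkv6-15 and -8.11 ± 0.34 for Igkv14-111 (adjusted p = 1.31e-05 and 2.41e-05), and the exception was Igkv19-93 1427856_a_at (-5.30 ± 1.01, adjusted p = 0.084), the probe set on which the wild-type Igκ+ replicates differed most. Without Igλ+ replicate 1, 2 of the 12 fell, against 0.0296% of all, and 0 rose, against 0% of all. These were Igkv15-103 (-3.30 ± 0.29, adjusted p = 0.0300) and Igkv14-111 (-2.91 ± 0.31, adjusted p = 0.0467). Igk 1452557_a_at was at -0.25 ± 0.16 there. In both fits a lone Igλ+ array is assumed to vary as the other groups do.

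On Igλ+ replicate 1 the κ probe sets were most of those with the deepest loss of signal. Of the 16116 probe sets whose wild-type Igκ+ mean reached 200, 26 lay below 5% on that array, and 13 of them were κ members, 7 were other κ probe sets and 2 were named Ighm, the μ heavy chain gene, while 4 have no gene in the annotation. Since 6 of the 14 members were at the level of unspiked controls there, their percentages are upper bounds: taken at that level, Igkv14-111 had at most 0.198% and Igkv6-15 at most 0.208% of the wild-type Igκ+ mean, that is at least 506-fold and 481-fold lower than in wild-type Igκ+ cells. On Igλ+ replicate 2, 18 of the 16116 lay below 5%, none of them a κ probe set, and 11 of the 14 members lay below 50%, against 1.22% of the 16116.

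What remained on the Igλ+ arrays was spread unevenly over the members. On replicate 1 the 4 probe sets above 2% were Igk 1452557_a_at, Igkv4-68 (3.36%), Igkv19-93 1427855_at (2.56%) and Igkv8-30 (2.11%). The other 10 read below 1%, but 6 of them were at the level of unspiked controls. Taken at that level, Igk 1426178_at had at most 12.9%, Igk 1427757_at 4.09% and Igkv19-93 1427856_a_at 1.08%, so these are not shown to lie below 1%. With signals below that level set to it, the median of the 14 was 0.857%. On replicate 2 the highest were Igk 1452557_a_at (83.9%), Igkv8-30 (69.0%) and Igkv19-93 1427855_at (54.0%), and the lowest were Igkv15-103 (9.74%) and Igkv14-111 (13%). The order of the 14 on the 2 arrays had a rank correlation of 0.58. That between the TAK1-deficient mean and Igλ+ replicate 2 was 0.82, which describes probe sets that share a reference and a range of brightness. The 3 Igkc probe sets of several genes had 4.07 to 5.44% on replicate 1 and 83.4 to 89.7% on replicate 2, close to Igk 1452557_a_at on both.

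**Figure D4:**
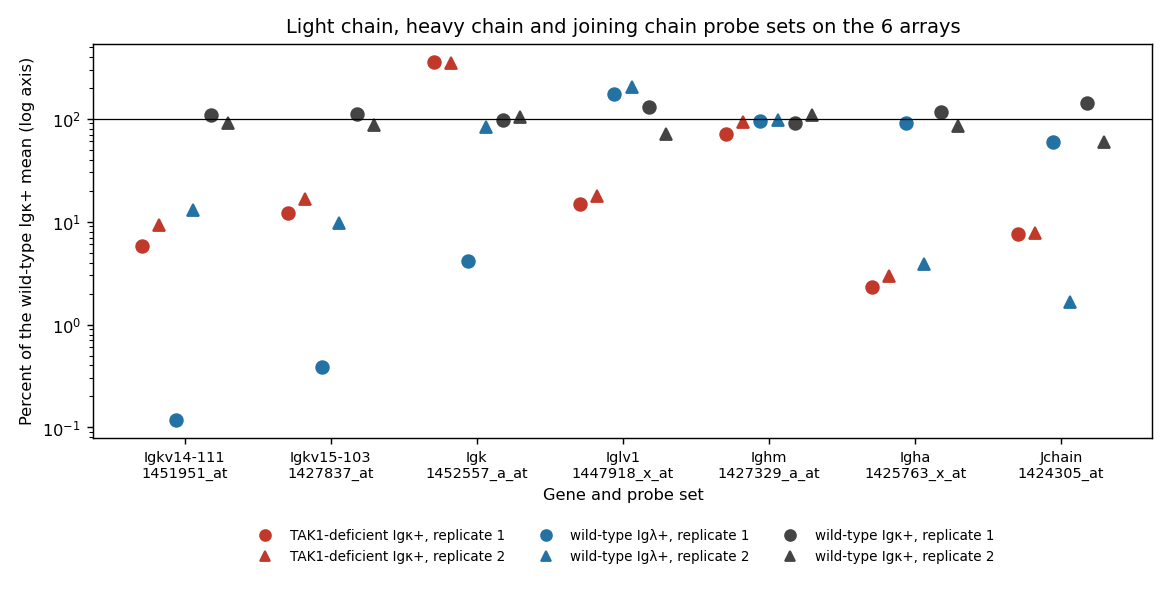
Percent of the wild-type Igκ+ mean (log axis) on the 6 arrays for 3 κ probe sets, the λ gene Iglv1, the heavy chain genes Ighm and Igha, and Jchain. Circles are replicate 1 and triangles replicate 2. The κ points of Igλ+ replicate 1 are far below those of replicate 2, whereas for Igha and Jchain Igλ+ replicate 2 is the lower of the pair and for Iglv1 both Igλ+ arrays lie above 100%.

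Other immunoglobulin chains mostly did not follow κ on the Igλ+ arrays. Iglv1, a λ V gene, had 7382 and 8683 in Igλ+ and 5490 and 3018 in wild-type Igκ+ cells at its brightest probe set, so the Igλ+ replicate with more κ signal had no less λ signal. Of its other probe sets, 1430523_s_at had 6978 and 7443 in Igλ+ against 2740 and 3102 in wild-type Igκ+ cells, with no overlap, and 1427292_at had 2737 and 4976 against 5382 and 4263, which overlap. Ighm was 7486 and 7650 against 7199 and 8585, with overlapping groups, though a dimmer Ighm probe set, 1452535_at, had 19.6 and 753 against 846 and 459. Jchain, which encodes the joining chain made by plasma cells, had 4147 and 117 in Igλ+ and 9837 and 4130 in wild-type Igκ+ cells, and Igha, the IgA heavy chain gene, had 8055 and 348 against 10263 and 7531. Igλ+ replicate 2, the one with more κ RNA, was therefore the one with less Jchain and Igha. In TAK1-deficient against wild-type Igκ+ cells, 4 of the 8 tested genes for other immunoglobulin chains fell and 0 rose. Over all probe sets tested, 35.2% fell and 42.3% rose, and with 1 probe set per gene 48.7% fell and 31.4% rose. All 3 Iglv1 probe sets were called lower there, with log2 differences of -1.61, -3.06 and -2.53, and the brightest had 634 and 752 in TAK1-deficient Igκ+ cells. In the same cells Jchain was 526 and 538 and Igha 205 and 262, both called lower than in wild-type Igκ+ cells (limma, Benjamini-Hochberg adjusted p = 0.0284 and 0.00236), while Ighm was 5634 and 7336 (adjusted p = 0.132). Under the lowess adjustment Igha remained called lower (adjusted p = 0.0191) and Jchain did not (adjusted p = 0.196).

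Markers of other cells differed between the arrays too. The summed signal of the 12 listed plasma cell markers was 8627 and 10143 in TAK1-deficient Igκ+, 21358 and 21094 in Igλ+, and 30465 and 26179 in wild-type Igκ+ cells, with 1 of the 12 at the unspiked level on Igλ+ replicate 2 (Tnfrsf17, which encodes the plasma cell receptor BCMA) and 0 on the other arrays. The summed signal of 10 granulocyte markers was 8217 and 8757, 39403 and 335, and 5423 and 332 in the same groups. Of the 10, 0 and 2, 0 and 5, and 0 and 3 were at the unspiked level. The Igλ+ replicate with the least κ signal was thus the one with the most granulocyte signal. Summed over 9 monocyte or macrophage markers the signal was 2851 and 2951, 10495 and 560, and 2256 and 961, with 2 and 2, 0 and 3, and 0 and 2 of the 9 at the unspiked level. Such sums hide genes that go the other way. Of the 12 plasma cell markers, 6 were called lower and 2 higher in TAK1-deficient than in wild-type Igκ+ cells. With 1 probe set per gene 48.7% fell and 31.4% rose. The 2 were Prdm1 (391 and 759 against 219 and 107) and Tnfrsf17 (567 and 483 against 227 and 35.2).

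T cell markers stood highest on the TAK1-deficient arrays. Over 10 of them the sum was 5655 and 6051 in TAK1-deficient Igκ+, 357 and 235 in Igλ+, and 339 and 241 in wild-type Igκ+ cells, with 2 and 1, 0 and 6, and 3 and 3 at the unspiked level. The T cell factor gene Bcl11b had 2431 and 2313, 18.9 and 14.6, and 16 and 5.07 in these groups, and Cd3e, a subunit of the T cell receptor complex, had 271 and 287, 40.2 and 7.86, and 2.15 and 27.5. The median signal of all probe sets was also higher there, at 324 and 323 on the TAK1-deficient, 53.6 and 59.1 on the Igλ+ and 53.9 and 44.9 on the wild-type Igκ+ arrays. The sums were 7956 and 8159, 10765 and 12427, and 9792 and 7608 for 9 pre-B cell markers. For 7 erythroid markers they were 1257 and 1169, 3255 and 1063, and 1174 and 1644, and for 7 NK markers 996 and 1178, 1954 and 921, and 940 and 3045. The part of any of these cells in the κ values was not tested.

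Between Igλ+ and wild-type Igκ+ cells 0 of the 20 κ factors passed in either direction, as did 0% of all 27022 probe sets. At an unadjusted p under 0.05 in limma there were 0 of the 20, against 0.581% of all lower and 1.85% higher. The factors had a median log2 difference of -0.05, against 0.03 over all. Rag1 had 315 and 478 in Igλ+ against 178 and 69.4 in wild-type Igκ+ cells, with a log2 difference of 1.65 that did not pass the test (limma, Benjamini-Hochberg adjusted p = 1).

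Outside the members, the 8 probe sets most like them were sought by the root mean square distance, over the 4 wild-type arrays, between the log2 percentage of a probe set and the median profile of the 14. The nearest was Igkv6-20 (distance 0.23 log2 units), a κ V gene with 7.61 and 393 in Igλ+ against 1653 and 1210 in wild-type Igκ+ cells. Igkv9-120 (0.63) and the several-gene probe sets of Igkv6-14 with Igkv6-23 and Igkv8-19 (0.32) and of Igkv4-55 with Igkv4-68 (0.74) followed. This Igkv9-120 probe set has the same source sequence as the member Igk-V21. The several-gene probe sets name the member genes Igkv6-14 and Igkv4-68, so none of them is separate from the members. Ehf, an epithelial transcription factor gene, came second at 0.29, but its signals of 0.15 and 12.2 in Igλ+ and 31.9 and 27 in wild-type Igκ+ cells were low, and it passed the filter through the TAK1-deficient arrays. Of the 3 remaining probe sets, which have no gene in the annotation, those at 0.80 and 0.83 were bright, with 88.2 and 1664 against 7479 and 7385 and with 73.2 and 1145 against 6246 and 7204, and that at 1.18 was at the unspiked level on all 4 arrays.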

How the data were processed

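RNA of sorted B cells was hybridised to 6 Affymetrix arrays. The deposited values are probe set intensities on a linear scale. The submitters' processing notes name MAS5 for them, without its settings, and of a genome build it can be said that it was not given in the sources used here. Trimmed by 2% at each end, each array's deposited intensities average 500.0. The number of arrays limits the precision, and no array column was without a sample.

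Groups came from the titles, and the suffix "-rep" marks replicate 2. Probe sets were named from the platform annotation (34945 with 1 symbol, 932 with several, 9160 with none listed, 64 controls). Of the 10 member symbols 9 were matched by Entrez identifier to RefSeq (GRCm38.p6), from which only names and the order along the locus were taken. Signals were taken as log2(signal + 16), which understates changes of dim probe sets. Every non-control probe set with a mean above the 40th percentile (a signal of 142) was a feature of its own. Groups were compared with limma 3.58.1 in R 4.3.3 (lmFit, a mean per group over all 6 arrays, two-sided, eBayes with its trend option, Benjamini-Hochberg over 27022 probe sets). The code was tested on simulated data. Figures were drawn with matplotlib 3.10.9.

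The fits of the pathway lists under each scaling were added after seeing the data. All members are named. Of the 3 pathway and 8 marker lists, a gene stands by its brightest probe set; examples are the largest called changes and a fixed set of genes. The members, lists and tests were chosen with earlier results of these data known. Alternatives were pseudocounts of 1 and 64, no filter or the 60th percentile, quantile normalization, median centring, scaling on the spiked controls, a lowess adjustment (span 0.2) of the TAK1-deficient arrays, a floor at the unspiked controls, 1 probe set per gene, no trend in eBayes, a fit on only the 4 arrays of a comparison, a block by title suffix, and leaving out each array.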

Additional observations from a re-analysis of the deposited data

How the results depend on the processing

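In Igλ+ against wild-type Igκ+ cells, every tested κ probe set was lower under all alternatives run, and the number called lower was 0 except without Igλ+ replicate 1 (2) and without Igλ+ replicate 2 (11), a range of 0 to 11 when 1 array is left out. In TAK1-deficient against wild-type Igκ+ cells, the number called lower, 2 as reported, was 0 with a pseudocount of 1 and with the lowess adjustment, 1 without a trend, 4 with the replicate block, 5 after quantile normalization, 8 with only the 4 arrays and 10 with median centring and with spiked-control scaling, and ranged from 0 to 8 when 1 array was left out. The share of all probe sets called lower was 35.2% as reported and, in the same order, 35.2%, 13.2%, 34.7%, 35.2%, 43.4%, 37%, 62.9% and 67.1%, and 30% to 36.9% when 1 array was left out. The number called higher, 0 as reported, was 2 with the lowess adjustment and with only the 4 arrays, and 0 to 2 when 1 array was left out. With a pseudocount of 64 and with the floor at the unspiked controls 3 were called lower, against 35.3% of all in each. Without the filter 3 of 14 were, against 21.8% of all. The median log2 difference over the κ probe sets, -2.29 as reported, was -1.98 after quantile normalization, -1.19 with the lowess adjustment, -4.91 with median centring and -5.63 with spiked-control scaling. Over all probe sets it was 0.23 as reported and -0.30, 0.45, -2.33 and -3.00 with these, and the share of higher among called probe sets was 54.6% and then 44.9%, 74.4%, 27.7% and 23.0%. The mean of the TAK1-deficient medians, 19.1% of the wild-type Igκ+ mean, was 33.4% with the lowess adjustment, 2.89% with median centring and 1.75% with spiked-control scaling.

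Differences of single κ probe sets changed sign in the TAK1-deficient comparison, none of them called. Igk 1452557_a_at went to -0.90 with median centring, -1.64 with spiked-control scaling and -0.07 with quantile normalization. Igkv8-30 went to -0.67 and -1.41 with the first 2 of these. Igkv4-68 went to 0.22 after quantile normalization and 0.35 with the lowess adjustment, and Igkv19-93 1427855_at to 1.41 with the lowess adjustment and, when 1 array was left out, to between -0.16 and 0.03 (without TAK1-deficient replicates 1 and 2). Under scalings added for the named genes after the data were seen, Pou2af1 went to -2.58 and Ebf1 to -2.05 with median centring and to -3.32 and -2.79 with spiked-control scaling, Rag1 to -1.62 with spiked-control scaling, -0.96 with median centring and -0.36 with quantile normalization, and with the lowess adjustment Irf4 went to 0.04 and Ighm to 0.71. The cause of these changes was not tested. The replicate block rests on a title suffix shared by the groups. The deviations of arrays with the same suffix had a correlation of -0.016 between TAK1-deficient and wild-type Igκ+ and 0.228 between Igλ+ and wild-type Igκ+ cells. The labels do not say that the suffix marks a shared batch, animal or day, and with a pair of arrays in each group the pairing was not settled. In the wild-type groups some signals did differ the same way between the suffixes, such as the granulocyte sums of 39403 and 335 in Igλ+ and 5423 and 332 in wild-type Igκ+ cells. The block changed no call in the Igλ+ comparison.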

Other observations

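Some heavy chain probe sets differed between the replicates of a group in the way Igkv19-93 1427856_a_at did among wild-type Igκ+ arrays. Of 11 probe sets named Ighm, 5 had 500 to 1255 on Igλ+ replicate 1 and 0.893 to 20.1 on Igλ+ replicate 2, and 2666 to 5036 on wild-type Igκ+ replicate 1 and 2.65 to 42.8 on wild-type Igκ+ replicate 2. The probe set that stands for Ighm here, 1427329_a_at, had 7486 and 7650 in Igλ+ and 7199 and 8585 in wild-type Igκ+ cells. Both sets of values here were picked out with the data in view.

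The 5 several-gene κ probe sets without Igkc were less alike than the 3 with it. Of these, the probe set 1427576_at of Igkv6-14, Igkv6-23 and Igkv8-19 had 675 and 349 in TAK1-deficient Igκ+, 21.8 and 255 in Igλ+, and 217 and 76.7 in wild-type Igκ+ cells. Another probe set with the same annotation, 1451965_at, had 422 and 666, 13.8 and 564, and 2829 and 2788. Igλ+ replicate 1 was the lowest array in both.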
